A study of Mus musculus with 58 samples.

Results

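Mouse livers were compared for the messenger RNA of 10 enzymes that make, salvage or break down pyrimidine nucleotides: Cad, Dhodh, Umps, Ctps, Ctps2, Cmpk1, Uck1, Uck2, Upp2 and Dpys. They were taken by gene symbol from a table of 24537 genes, and each symbol matched 1 row. Their levels are described in all 6 groups of mice and against the level of Myc in each of the 58 libraries.

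All mice were male C57BL6/J, and each library was made from poly(A) RNA of whole liver. Every mouse received AAV8, a virus that delivers genes to the liver, carrying either Myc, a transcription factor and oncogene, or, in control mice, the red fluorescent protein mApple. The TBG promoter on the vector is active in hepatocytes, so the other cells of the liver are not its target. The mice were also given ruxolitinib, an inhibitor of the JAK kinases that act below interferon receptors, or vehicle, for 30 days. Each gavage gave 45 mg/kg of the drug, and mice received 2 of them daily except for a 2-day pause each weekend. Young mice were 4 months old and formed only a pair of groups, mApple with vehicle (6 livers) and Myc with ruxolitinib (10), so that vector and drug changed together at that age. Old mice formed all 4 combinations: mApple with vehicle (8), mApple with ruxolitinib (9), Myc with vehicle (11) and Myc with ruxolitinib (14). Libraries were sequenced in 2 batches of 18 and 40. The first held only old mice, aged 25 months. The second held every young mouse and old mice aged 24 months, so that among old livers batch and this difference in age cannot be told apart. Nothing in the labels ties livers of different groups to each other, and p-values measure the spread among separate livers within this single experiment.

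Pyrimidine rings are built from glutamine, bicarbonate and aspartate in a short de novo route. Cad, a protein that joins carbamoyl phosphate synthetase, aspartate transcarbamylase and dihydroorotase, starts it, Dhodh oxidises dihydroorotate in the mitochondrial inner membrane, and Umps makes UMP. Cmpk1 phosphorylates UMP and CMP, Ctps and Ctps2 turn UTP into CTP, Uck1 and Uck2 return uridine and cytidine to the pool, and Upp2 and Dpys stand at the breakdown side. Cad is a textbook target of Myc, and the liver both makes uridine for the circulation and degrades it.

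The libraries held 10676097.5 to 40982340.5 exon counts, that is 10.7 to 41.0 M, with a median of 14.6 M. Levels below are CPM, the counts per M counts of the library, after TMM scaling, a correction for differences in library composition. The 8 hepatocyte markers were high in every library, with a summed level of 48010 to 217915 CPM, and none was at 0. The Myc row counted 24.4 to 132 CPM in the Myc vector libraries other than 870, and 2.35 to 56.8 CPM in the mApple libraries. Library 870, labelled old Myc with vehicle, had 6.88 CPM of Myc, among the mApple values, and library 855, labelled old mApple with vehicle, had the 56.8 CPM. The species of the Myc sequence on the vector is not given in the sources used here, and how fully this mouse row counts the vector's transcript was not tested. Libraries 860 and 861 (old, Myc with ruxolitinib, first batch) stood apart with 946 and 735 CPM for the 4 leukocyte markers summed, against medians of 31.8 to 88.9 CPM in the 6 groups, and with the lowest hepatocyte marker levels of their group. Library 864 (old, mApple with ruxolitinib, first batch) had 454 CPM of neutrophil markers against a group median of 8.07. The main comparisons and correlations that these libraries enter are given with and without them where the value moved.

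Cad lies at chr5:31054780-31078479 on the plus strand of mm10, Ctps at chr4:120539868-120570276 on the minus strand, and Upp2 at chr2:58755184-58791242 on the plus strand. The 250 bases before the start of these 3 genes are printed because they are the members whose levels the results turn on: Cad opens the pathway, Ctps changed most with the Myc vector, and Upp2 varied most between livers. The sequences are RefSeq's for GRCm38.p6, 5′ to 3′ in the direction of the gene. Capitals mark CCGCCC, which is GGGCGG (a GC box) read on the other strand, in Cad and Ctps, and TATAAA in Upp2.
Cad (chr5:31054530-31054779): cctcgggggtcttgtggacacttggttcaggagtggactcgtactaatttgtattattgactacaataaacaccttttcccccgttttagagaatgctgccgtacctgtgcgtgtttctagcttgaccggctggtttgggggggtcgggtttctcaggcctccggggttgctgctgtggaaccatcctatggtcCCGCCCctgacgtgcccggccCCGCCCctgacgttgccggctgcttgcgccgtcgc
Ctps (chr4:120570277-120570526): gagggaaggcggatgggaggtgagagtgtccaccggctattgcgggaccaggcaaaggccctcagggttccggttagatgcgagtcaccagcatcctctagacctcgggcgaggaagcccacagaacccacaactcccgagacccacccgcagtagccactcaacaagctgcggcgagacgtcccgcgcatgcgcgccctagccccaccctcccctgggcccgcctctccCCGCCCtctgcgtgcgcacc
Upp2 (chr2:58754934-58755183): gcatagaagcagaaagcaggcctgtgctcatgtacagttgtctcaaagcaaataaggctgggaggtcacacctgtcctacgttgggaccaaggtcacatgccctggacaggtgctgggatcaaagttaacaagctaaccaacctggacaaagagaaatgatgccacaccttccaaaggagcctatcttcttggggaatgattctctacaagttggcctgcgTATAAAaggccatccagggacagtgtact
Counting from the gene's first base, the 2 GC boxes of Cad begin at -56 and -35, that of Ctps begins at -20, and the TATAAA of Upp2 begins at -29. GGGCGG on either strand is present in 35.7% of 32851 mouse promoter windows of 300 bases and TATAAA in 13.6%, so that either match is common. The Upp2 window had 47.0% G and C and 2 CpG dinucleotides, against 59.7% and 21 for Cad and 68.3% and 27 for Ctps (medians over all windows 52.7% and 7). Windows of 8 of the 10 members were matched, all but Dhodh and Dpys. That of Umps (15 CpG) held 1 GC box and 1 TATAAA, that of Uck2 (22) 4 GC boxes and that of Cmpk1 (23) 2. Those of Ctps2 (6 CpG) and Uck1 (18) held neither motif. None of the 8 contained CACGTG, the E-box sequence known to be bound by Myc with its partner Max, which 7.15% of all windows contain. That says only that these letters are not in the windows.

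The first 100 bases of the transcript were searched for the same 6 letters, and Cad was the only member of 10 with a match, against 1.86% of 21820 transcripts (406) in the GENCODE annotation of GRCm38. It covers bases 78 to 83 of the transcript, within the 5′ UTR, since the coding sequence starts at base 176. The match is shown in capitals within 30 bases at chr5:31054845-31054874.
Cad transcript: cgcgcagcgagcCACGTGgaccaactccgg
A match is a description of the sequence, and nothing was measured at it here.

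Per kilobase of exon, the scale on which genes can be compared, the 10 enzymes fell into a high and a low range. Dpys (dihydropyrimidinase, which opens the reduced ring) had a median of 98.3 CPM per kb over the 58 livers, Upp2 (uridine phosphorylase, which splits uridine into uracil and ribose phosphate) 65.3, and Cmpk1 47.9. Uck1 had 17.4 and Umps 12.2. The other five were lower, with Uck2 at 4.96, Dhodh at 3.46, Ctps at 2.85, Cad at 2.80 and Ctps2 at 2.32 CPM per kb. The breakdown enzymes thus stood above the enzymes of synthesis on this scale. The lowest and highest liver differed 33.6-fold in Upp2 CPM and 11.4-fold in Ctps CPM, and 2.10-fold in Uck1, the steadiest member.

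**Figure D1:**
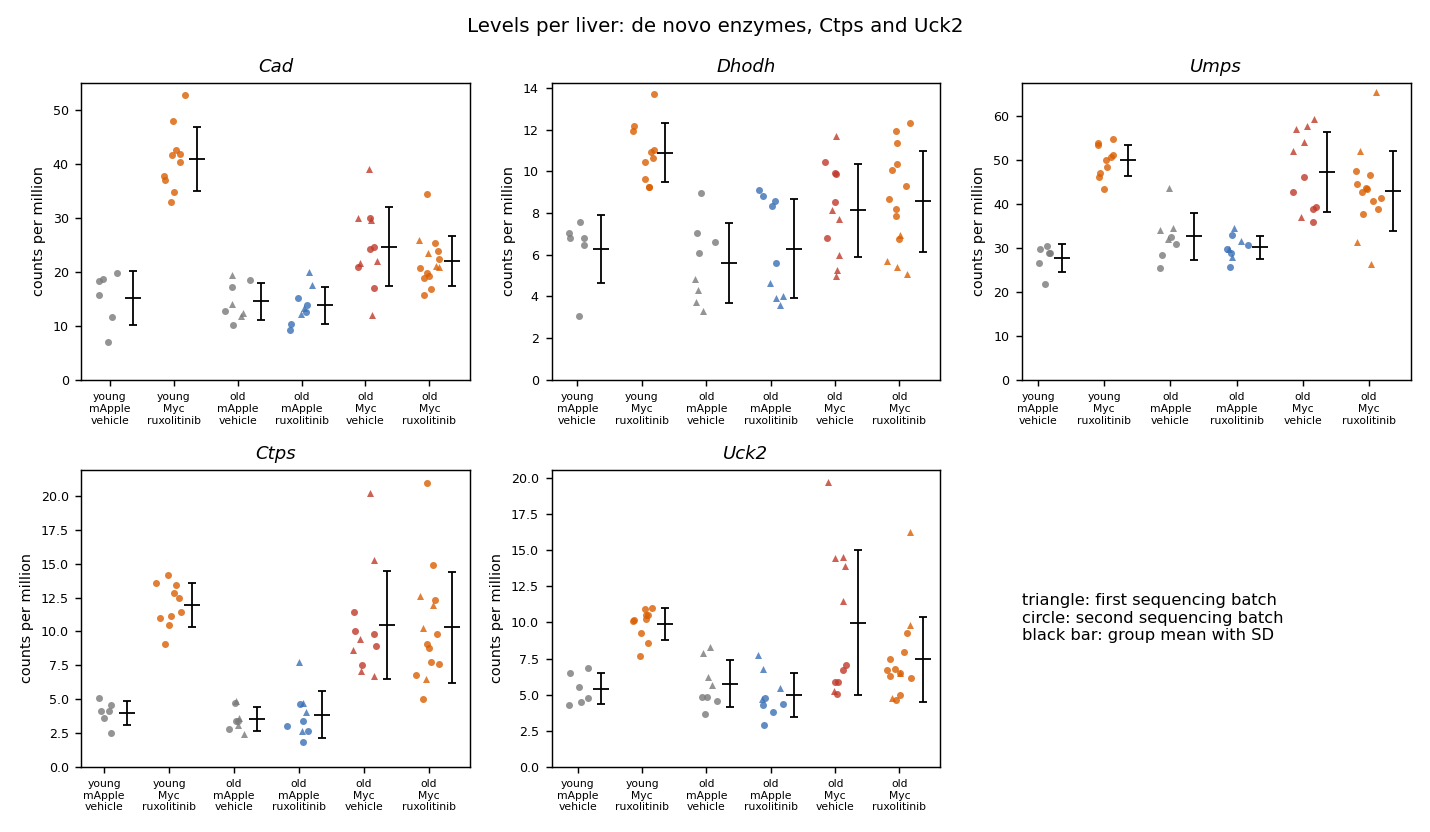
CPM (y axis) of Cad, Dhodh, Umps, Ctps and Uck2 in each liver of the 6 groups (x axis); triangles are the first and circles the second sequencing batch, and black bars give the group mean with its SD. The Myc groups lie above the mApple groups, without overlap between the young groups and with overlap for most of these genes between old groups.

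In old livers given vehicle, the Myc vector came with more RNA of 5 of the 10 enzymes and with less of none. The 5 were the 3 enzymes of the de novo route (Cad, Dhodh and Umps), the CTP synthase Ctps and the uridine kinase Uck2. All 10 passed the filter on low counts here and in every other comparison. Of 13547 genes tested, 18.8% changed, 10.8% higher and 8.01% lower. The median log2 difference was 0.51 over the 10 members and -0.02 over all genes. In bulk tissue, more cells of a type and more RNA per cell cannot be told apart.

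Cad ranged from 10.2 to 19.4 CPM with a median of 13.3 in the 8 mApple livers, and from 12.03 to 39.1 with a median of 24.1 in the 11 Myc livers. The groups overlapped, with 9 of 11 Myc livers above every mApple liver and library 870 the lowest of the Myc livers. The log2 difference was 0.72 ± 0.18 (SE; adjusted p = 0.00796, edgeR's quasi-likelihood test). Umps ranged from 25.4 to 43.6 CPM (median 32.3) with mApple and from 35.9 to 59.5 (median 46.2) with Myc. In the second batch its groups did not overlap, and the log2 difference over both batches was 0.48 ± 0.09 (edgeR adjusted p = 0.000907). Dhodh ranged from 3.28 to 8.95 CPM with mApple and from 4.96 to 11.7 with Myc, medians 5.46 and 8.13, and its log2 difference was 0.56 ± 0.15 (edgeR adjusted p = 0.0160). The mApple livers differed by batch, with 3.28 to 4.83 CPM in the first and 6.09 to 8.95 in the second. Within the first batch all 6 Myc livers were above the 4 mApple livers.

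Ctps, which aminates UTP to CTP, had the largest difference of the 10. It ranged from 2.43 to 4.87 CPM (median 3.37) in mApple livers and from 6.73 to 20.3 (median 9.42) in Myc livers. All 11 Myc livers, library 870 included, lay above all 8 mApple livers. The log2 difference was 1.53 ± 0.21 (edgeR adjusted p = 7.01e-05). Ctps2, the second CTP synthase, had 7.78 to 15.05 CPM with mApple and 11.2 to 14.9 with Myc, and its log2 difference of 0.12 (95% interval -0.07 to 0.31) did not pass (edgeR adjusted p = 0.391). Uck2 ranged from 3.63 to 8.27 CPM (median 5.24) with mApple and from 5.03 to 19.7 (median 7.03) with Myc, a log2 difference of 0.67 ± 0.18 (edgeR adjusted p = 0.0136). The high Uck2 livers were 5 of the 6 Myc livers of the first batch, at 11.5 to 19.7 CPM. Library 870, the sixth, had 5.26, below every mApple liver of that batch.

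The other uridine kinase, Uck1, and the UMP and CMP kinase Cmpk1 each differed by 0.06 on the log2 scale, with 95% intervals of -0.12 to 0.25 and -0.10 to 0.23. Dpys differed by -0.06 (-0.28 to 0.16). Upp2 differed by 0.53 ± 0.21 (edgeR adjusted p = 0.0855), with 91.3 to 408 CPM in Myc and 59.0 to 330 in mApple livers. None of these 4 passed; Upp2 did so in 3 of 19 refits without a single library (870, 1136 or 862) and in limma voom (adjusted p = 0.0265).

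Within single batches, fewer of these calls held. In the first batch alone the log2 differences were 0.82 for Cad, 0.83 for Dhodh, 0.53 for Umps, 1.67 for Ctps and 0.90 for Uck2, and only Ctps passed (edgeR adjusted p = 0.0204). In the second batch alone they were 0.65, 0.32, 0.45, 1.40 and 0.44 in the same order, and Umps (edgeR adjusted p = 0.0216) and Ctps (0.00237) passed. Without library 870 all 5 members passed, with Cad at 0.80, Dhodh at 0.59, Umps at 0.52, Ctps at 1.58 and Uck2 at 0.75, and without library 855 they passed at 0.68, 0.50, 0.47, 1.49 and 0.70 in the same order. The level of the 10 proliferation markers, a mean log2(CPM + 1), had a median of 2.17 in mApple and 3.43 in Myc livers. The ranges, 1.65 to 2.47 and 2.22 to 4.53, overlapped, and this difference was not tested. The summed hepatocyte markers had medians of 167946 and 126815 CPM, with overlap. The part of either in the differences was not tested.

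In old livers given ruxolitinib the members that rose with the Myc vector were again Cad, Dhodh, Umps, Ctps and Uck2. No library is shared with the vehicle comparison. Of 14010 genes tested, 14.4% changed, 8.40% higher and 5.96% lower. The median log2 difference was 0.32 over the 10 members and 0.01 over all genes. Cad ranged from 9.21 to 19.96 CPM (median 13.3) in the 9 mApple and from 15.7 to 34.3 (median 20.9) in the 14 Myc livers. The groups did not overlap within either batch, and the log2 difference was 0.71 ± 0.13 (edgeR adjusted p = 0.000856). Ctps ranged from 1.84 to 7.73 CPM (median 3.36) with mApple and from 4.97 to 21.0 (median 9.44) with Myc. All 10 Myc livers of the second batch were above the 5 mApple livers of that batch, and library 865 held the 7.73 CPM. The log2 difference was 1.47 ± 0.25 (edgeR adjusted p = 0.000396).

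Umps ranged from 25.7 to 34.5 CPM (median 29.8) with mApple and from 26.3 to 65.4 (median 43.1) with Myc. Libraries 861 and 860 had the lowest values of the Myc group, 26.3 and 31.3 CPM, and the other 12 Myc livers were above every mApple liver. The log2 difference was 0.51 ± 0.11 with these libraries (edgeR adjusted p = 0.00229) and 0.64 without them. Uck2 differed by 0.67 ± 0.17 with them (edgeR adjusted p = 0.00989) and by 0.83 without them. Dhodh differed by 0.34 ± 0.11 (edgeR adjusted p = 0.0378), and this call was the least firm: adjusted p was 0.0531 without libraries 860 and 861, and 10 of 23 refits that left out a single library took it over 0.05, up to 0.0843 without library 1141. Without libraries 864 and 865 the edgeR adjusted p of Dhodh was 0.0966. With all libraries it was 0.0517 without the filter on low counts and 0.180 without a batch term. Limma voom gave Dhodh an adjusted p of 0.0674. The other four members passed in every one of the 23 refits.

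The first batch alone, with 4 livers a group, gave no member past the threshold, while its log2 differences were 0.51 for Cad, 0.50 for Dhodh, 0.48 for Umps, 1.08 for Ctps and 0.56 for Uck2. In that batch no gene of the table passed. The second batch alone gave 0.83, 0.26, 0.53, 1.72 and 0.74 in the same order, and all but Dhodh passed. Ctps2 differed by 0.26 ± 0.12 (edgeR adjusted p = 0.142, and 0.0416 without library 1140), Upp2 by 0.29 (95% interval -0.62 to 1.19), Cmpk1 by -0.07, Uck1 by -0.10 and Dpys by -0.19, and none passed. The proliferation marker level had medians of 2.59 in mApple and 3.36 in Myc livers, and the summed hepatocyte markers 165466 and 107393 CPM. Their part in the differences was not tested. Whether the vector's effect differed between vehicle and ruxolitinib was tested as an interaction over the 4 old groups. No member and none of 14046 genes passed (0% called), 0 members and 735 genes had an unadjusted p under 0.05, and DESeq2 and limma voom also called 0 members. The members' interaction terms lay between -0.23 and 0.12 on the log2 scale. Their 95% intervals were narrowest for Cmpk1 (-0.35 to 0.10) and widest for Upp2 (-1.10 to 1.06). Those of Cad and Ctps were -0.47 to 0.42 and -0.73 to 0.58. The test therefore cannot show that the vector's effects were equal under both treatments.

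**Figure D2:**
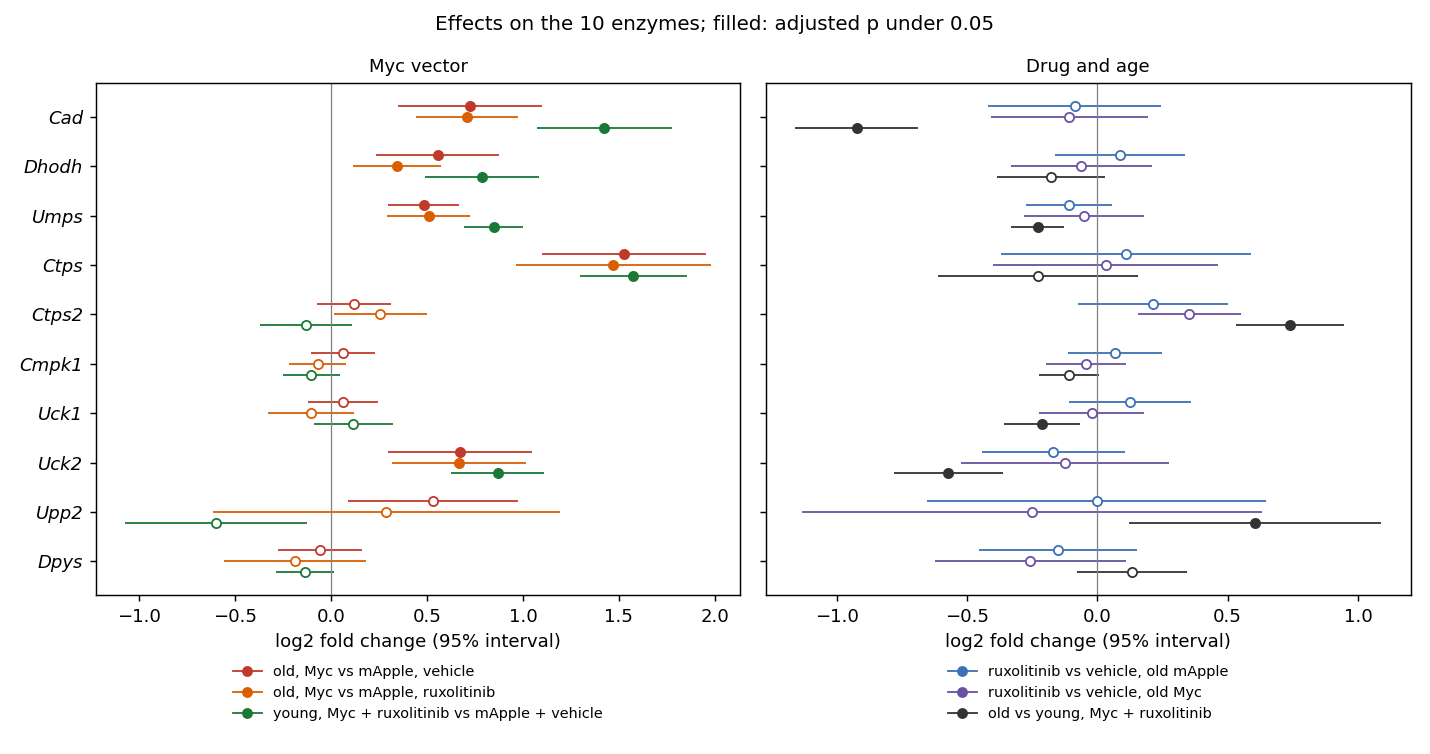
Log2 fold changes with 95% intervals (x axis) for the 10 enzymes (y axis) with the Myc vector, left, and with drug or age, right; filled points passed an adjusted p of 0.05. Cad, Dhodh, Umps, Ctps and Uck2 are filled in the 3 comparisons on the left, no point of the ruxolitinib comparisons is filled, and Ctps2 lies highest of the 10 in the comparison of old with young.

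In young livers, Myc with ruxolitinib against mApple with vehicle gave the same 5 members as higher and no member as lower. The groups did not overlap for any of the 5. The share of all genes without overlap was not counted, here or in the other comparisons, so a lack of overlap is a description only. Of 12808 genes tested, 27.5% changed, 13.5% higher and 14.0% lower. Vector and drug cannot be told apart here. Cad ranged from 6.95 to 19.7 CPM (median 17.0) in the 6 mApple livers and from 33.0 to 52.7 (median 41.0) in the 10 Myc livers, a log2 difference of 1.42 ± 0.17 (edgeR adjusted p = 4.59e-06). Umps ranged from 21.9 to 30.4 CPM against 43.5 to 54.8 (medians 28.9 and 50.4), a log2 difference of 0.85 ± 0.07 (edgeR adjusted p = 1.32e-07). Every Myc liver was clear of every mApple liver for both genes.

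Ctps ranged from 2.50 to 5.05 CPM (median 4.10) against 9.05 to 14.2 (median 11.95), a log2 difference of 1.58 ± 0.13 (edgeR adjusted p = 9.56e-08). Dhodh ranged from 3.05 to 7.56 CPM (median 6.79) against 9.25 to 13.7 (median 10.8), a log2 difference of 0.79 ± 0.14 (edgeR adjusted p = 0.000374). Library 1134 held the lowest value of both Cad and Dhodh. Uck2 ranged from 4.30 to 6.86 CPM (median 5.16) against 7.66 to 10.99 (median 10.2), a log2 difference of 0.87 ± 0.12 (edgeR adjusted p = 1.88e-05). These 5 passed in each of the 16 refits without a single library. Upp2, the enzyme that splits uridine, differed by -0.60 ± 0.23 and did not pass (edgeR adjusted p = 0.0560); it passed in 3 of the 16 refits, without library 1123, 1131 or 1132. The proliferation marker level had medians of 1.72 and 3.21 in the mApple and Myc livers. The summed hepatocyte markers ranged from 120228 to 204734 CPM in mApple and from 80887 to 109731 CPM in Myc livers, with no overlap. The part of either was not tested.

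The same combined comparison in old livers of the second batch gave 3 members, all higher: Umps, Ctps and Uck2. Of 13761 genes, 10.9% changed, 6.52% higher and 4.35% lower. Umps ranged from 25.4 to 32.5 CPM in the 4 mApple livers with vehicle and from 37.8 to 47.5 in the 10 Myc livers with ruxolitinib, a log2 difference of 0.52 ± 0.08 (edgeR adjusted p = 0.00177). Ctps ranged from 2.81 to 4.68 CPM against 4.97 to 21.0, a log2 difference of 1.502 ± 0.33 (edgeR adjusted p = 0.0115). Neither gene overlapped between the groups. Uck2 differed by 0.56 ± 0.16 (edgeR adjusted p = 0.0411), and 8 of 14 refits without a single library took it over the threshold, including each of the 4 that left out a mApple liver. Cad differed by 0.54 ± 0.20 (edgeR adjusted p = 0.0873), Dhodh by 0.40 ± 0.16 (0.104) and Upp2 by 1.13 ± 0.36 (0.0557). DESeq2 and limma voom put Cad and Upp2 past the threshold as well, at adjusted p of 0.0486 and 0.0104 by DESeq2.

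Ruxolitinib itself moved no member past the threshold in old livers. Of the mApple livers, 53 of 13554 genes (0.391%) changed with the drug, 0.00738% higher and 0.384% lower. Of the 10 members, 0 passed, 0 had an unadjusted p under 0.05, and DESeq2 and limma voom also called 0. Their log2 differences lay between -0.17 and 0.21, with 95% intervals from -0.27 to 0.06 for Umps, the narrowest, to -0.65 to 0.65 for Upp2. Of the Myc livers, 75 of 13749 genes (0.545%) changed, 0.0436% higher and 0.502% lower. There 0 members passed in edgeR, 1 had an unadjusted p under 0.05, and DESeq2 called 1 and limma voom 0. That member was Ctps2. It ranged from 11.2 to 14.9 CPM (median 12.9) with vehicle and from 11.8 to 21.5 (median 16.2) with ruxolitinib, a log2 difference of 0.35 ± 0.10 (edgeR adjusted p = 0.116, DESeq2 0.0450). Without library 869 the edgeR adjusted p was 0.0438. Libraries 860 and 861, at 20.7 and 20.3 CPM, lay below only library 1150, and without them the difference was 0.21 (edgeR adjusted p = 0.535).

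**Figure D3:**
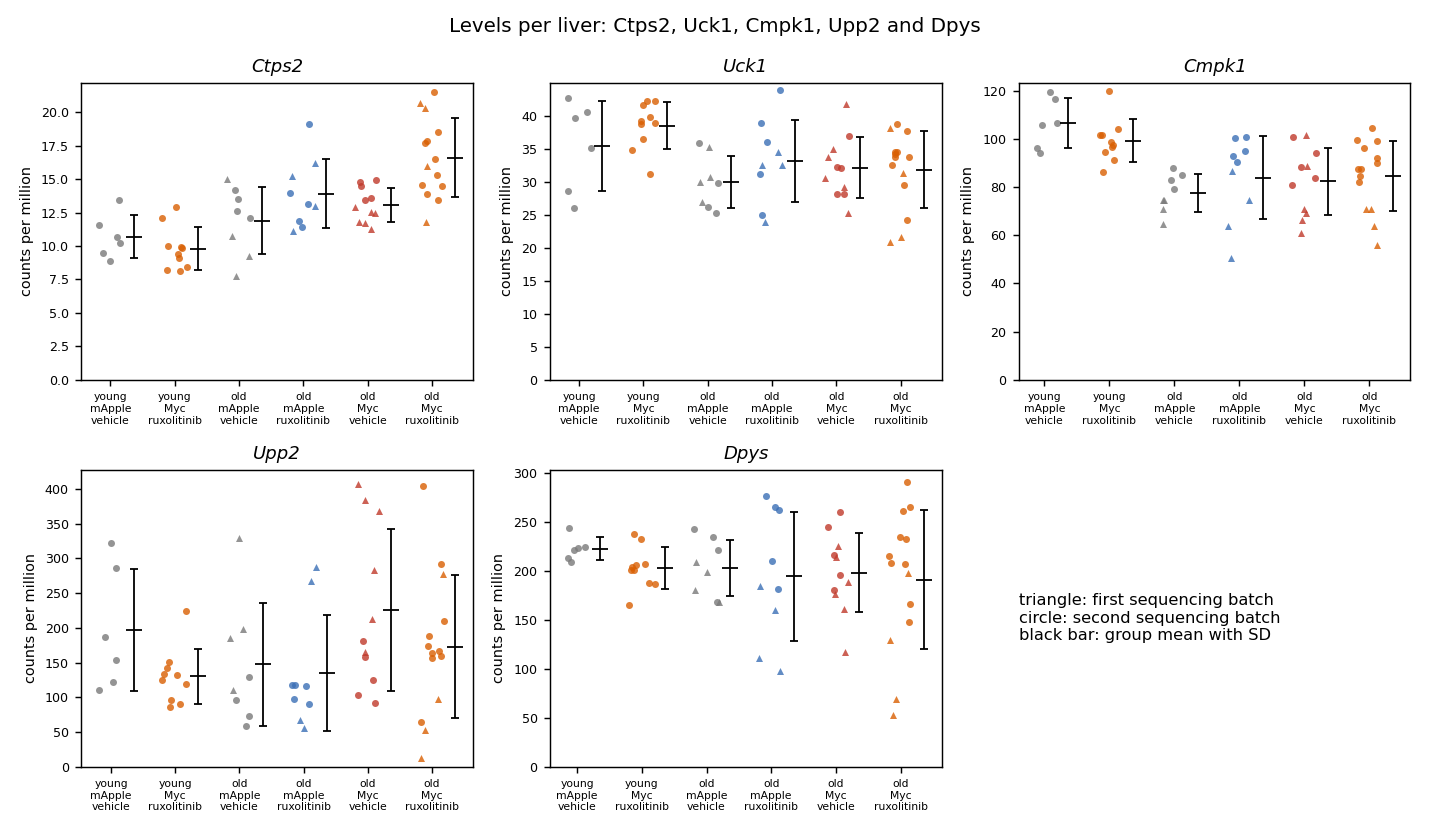
CPM (y axis) of Ctps2, Uck1, Cmpk1, Upp2 and Dpys in each liver of the 6 groups (x axis); triangles are the first and circles the second sequencing batch, and black bars give the group mean with its SD. Upp2 spreads most, from 12.1 to 408 CPM, and Ctps2 is highest in the old Myc livers given ruxolitinib.

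Among Myc livers given ruxolitinib in the second batch, old livers had less Cad, Uck2, Umps and Uck1 and more Ctps2 and Upp2 than young ones. Those are 4 members lower and 2 higher, where 33.7% of 12760 genes changed, 15.6% lower and 18.1% higher. Cad ranged from 15.7 to 34.3 CPM (median 20.2) in the 10 old livers and from 33.0 to 52.7 (median 41.0) in the 10 young livers. Only library 1150 among the old reached the young range, and the log2 difference was -0.92 ± 0.11 (edgeR adjusted p = 5.33e-06). Uck2 ranged from 4.62 to 9.24 CPM in old and from 7.66 to 10.99 in young livers, a log2 difference of -0.57 ± 0.10 (edgeR adjusted p = 0.000240). Umps had medians of 43.1 CPM in old and 50.4 in young livers and differed by -0.23 ± 0.05 (edgeR adjusted p = 0.00145). For Uck1, whose medians were 33.9 and 39.0 CPM, the difference was -0.21 ± 0.07 (edgeR adjusted p = 0.0236). With all 58 libraries fitted together, Uck1 did not pass (edgeR adjusted p = 0.0810).

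Ctps2 went the other way. It ranged from 13.5 to 21.5 CPM (median 15.9) in old and from 8.12 to 12.9 (median 9.64) in young livers. All 10 old livers were above all 10 young ones, and the log2 difference was 0.74 ± 0.10 (edgeR adjusted p = 1.43e-05). Upp2 was higher in old livers by 0.61 ± 0.23 (edgeR adjusted p = 0.0491), with 63.8 to 404 CPM against 86.2 to 224. That call was lost in 15 of 20 refits without a single library, and without library 1157, the highest, the difference was 0.42 (edgeR adjusted p = 0.120). Ctps itself differed by -0.23 (95% interval -0.61 to 0.16; edgeR adjusted p = 0.361). Without library 1154, which held 21.0 CPM of Ctps, its difference was -0.40 (edgeR adjusted p = 0.0351).

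The Myc level differed between the same livers, 24.4 to 45.6 CPM in old and 36.1 to 61.5 in young, a log2 difference of -0.70 ± 0.10 (edgeR adjusted p = 3.33e-05). The leukocyte marker level had medians of 3.56 in old and 2.88 in young livers on the log2(CPM + 1) scale. The part of either in the age differences was not tested.

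Among mApple livers with vehicle, age moved no member past the threshold in edgeR, where 1.1% of 13155 genes were called, 0.859% higher and 0.243% lower. Of the members 3 had an unadjusted p under 0.05, and DESeq2 called 2 and limma voom 3. Cmpk1 ranged from 79.3 to 88.2 CPM in the 4 old and from 94.4 to 119.8 in the 6 young livers, a log2 difference of -0.33 ± 0.09 (edgeR adjusted p = 0.108, DESeq2 0.0143). The groups did not overlap. Upp2 ranged from 59.0 to 129 CPM in old and from 111 to 322 in young livers, a difference of -1.13 ± 0.33 (edgeR adjusted p = 0.119, DESeq2 0.0152). Ctps2 differed by 0.30 ± 0.13 (edgeR adjusted p = 0.258).

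Whether the combined effect of Myc and ruxolitinib differed with age was tested as an interaction, in which 0.287% of 13609 genes passed, 0.103% higher and 0.184% lower. No member passed in edgeR, 5 had an unadjusted p under 0.05, DESeq2 called 1 and limma voom 3. The term for Cad was -0.90 ± 0.26 (edgeR adjusted p = 0.107), for Umps -0.34 ± 0.10 (0.131), for Ctps2 0.42 ± 0.17 (0.248) and for Upp2 1.73 ± 0.43 (0.0801). Upp2 passed by DESeq2 (adjusted p = 0.0100), and by edgeR without library 1123 (0.0459) or library 1150 (0.0381). The difference in the rise of Cad between young and old livers, 1.42 against 0.54, was thus not past the threshold in edgeR.

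**Figure D4:**
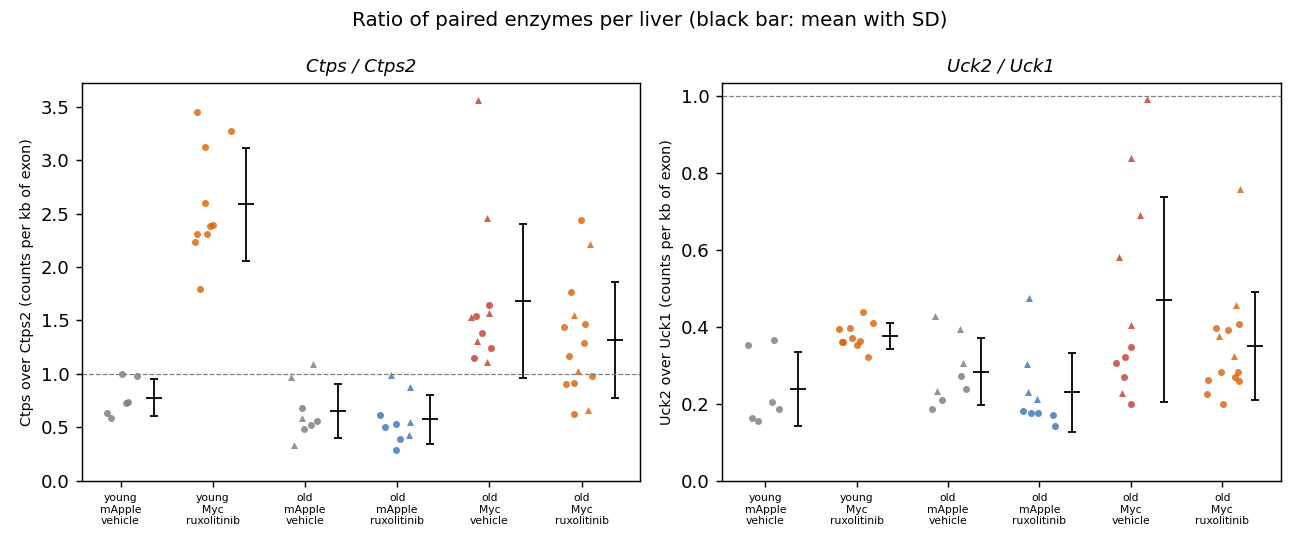
Ratio of Ctps to Ctps2 (left) and of Uck2 to Uck1 (right), each in counts per kb of exon (y axis), in each liver of the 6 groups (x axis); triangles are the first and circles the second batch, black bars the mean with SD, and the dashed line marks a ratio of 1. Ctps exceeds Ctps2 in every liver of the young Myc and old Myc vehicle groups, and Uck2 stays below Uck1 in all 58 livers.

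Corrected for exon length, the rank of Ctps and Ctps2 differed between most Myc and most mApple livers. That of Uck2 and Uck1 did not. Per kilobase of exon, the ratio of Ctps to Ctps2 had a median of 0.733 in young mApple livers (0.585 to 1.002) and of 2.39 in young Myc livers (1.79 to 3.45). In old livers the medians were 0.572 and 0.528 for mApple with vehicle and with ruxolitinib, and 1.53 and 1.23 for Myc. Ctps exceeded Ctps2 in 10 of 10 young Myc livers, 11 of 11 old Myc livers with vehicle and 9 of 14 with ruxolitinib, and in 2 of 23 mApple livers. The ratio of Uck2 to Uck1 had medians of 0.180 to 0.367 over the groups and reached 0.991 in 1 old Myc liver. These ratios are descriptions with no test. They rest on a single exon length per gene, 2.684 kb for Ctps and 5.569 kb for Ctps2. In CPM, median Ctps lay below median Ctps2 in old Myc livers with vehicle (9.42 against 12.9) and with ruxolitinib (9.44 against 16.2). In young Myc livers median Ctps lay above (11.95 against 9.64), and vector and drug changed together there.

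**Figure D5:**
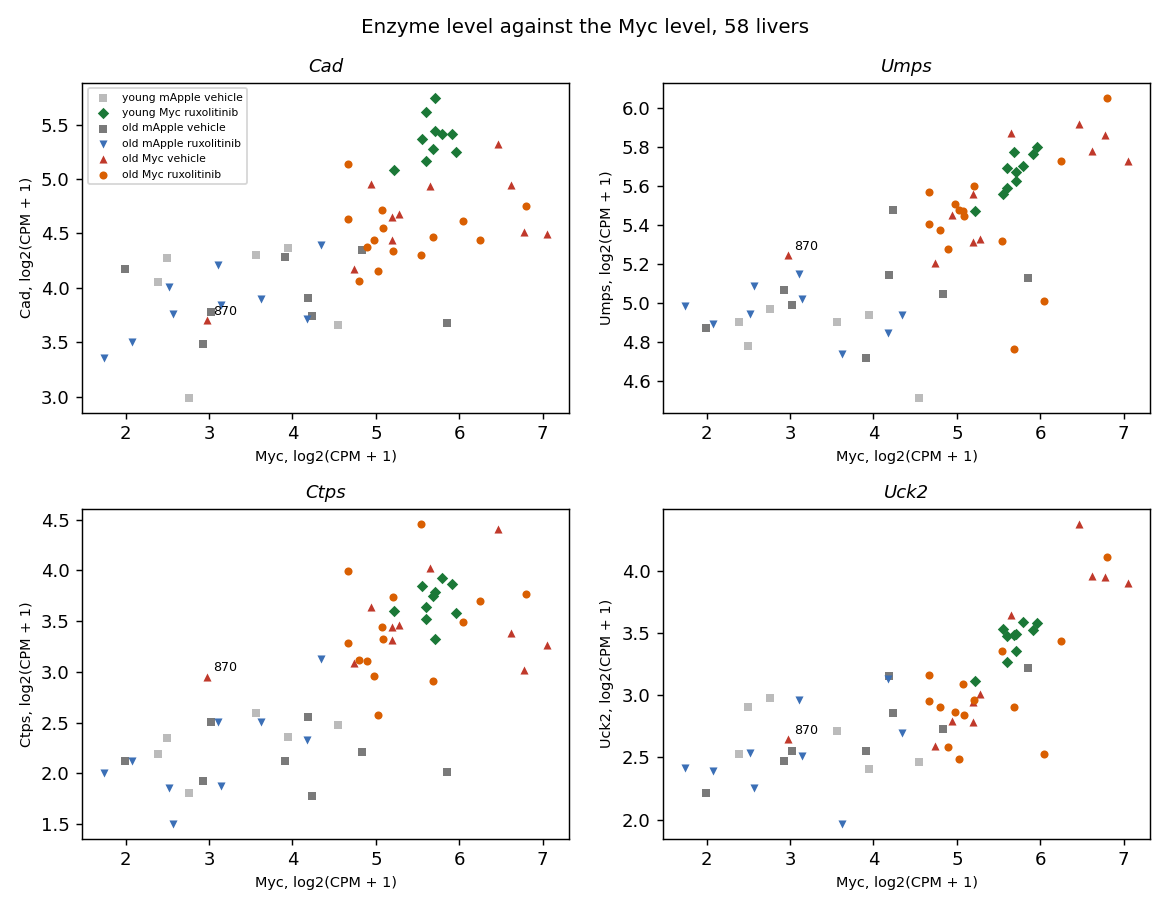
Level of Cad, Umps, Ctps and Uck2 (y axis, log2(CPM + 1)) against the level of Myc (x axis, log2(CPM + 1)) in the 58 livers, coloured by group; library 870 is marked. The Myc levels of the young groups do not overlap, those of the old vehicle groups do, and library 870 lies at the Myc level of the mApple livers.

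Vector and Myc level went together: the Myc levels of the vector groups did not overlap in young livers or in old livers with ruxolitinib, and in old livers with vehicle 4 of 11 Myc livers lay above library 855, the highest mApple liver. The relation to the Myc level was therefore examined within each group and batch. A fit of all 58 libraries with a mean for each group and batch, and the Myc level log2(CPM + 1) as a slope, called 1.91% of 14685 genes, 1.04% with a positive and 0.872% with a negative slope. No member passed in edgeR, 3 had an unadjusted p under 0.05, DESeq2 called 1 and limma voom 0. The slope of Uck2 was 0.24 ± 0.07 log2 units per unit of Myc (edgeR adjusted p = 0.0574, DESeq2 0.0116). The slopes of Ctps, Cad and Umps were 0.22 ± 0.09, 0.16 ± 0.08 and 0.06 ± 0.04 (edgeR adjusted p = 0.190, 0.278 and 0.505). Without library 870 the slope of Uck2 was 0.11 (edgeR adjusted p = 0.942), of Cad 0.04 and of Umps -0.02, and that of Ctps 0.20 (0.933). Without library 855 the slopes of Uck2, Ctps, Cad and Umps were 0.24, 0.24, 0.19 and 0.07, and none passed in edgeR. In the Myc vector libraries alone Uck2 (0.46, edgeR adjusted p = 0.00028) and Umps (0.20, 0.00931) passed, and without library 870 neither did (0.58 with 0.0521 and 0.30 with 0.127).

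The members were also correlated with Myc in each of the 6 groups, with values centred within batch, in 60 relations adjusted together. By Pearson's r 1 of 60 passed: Umps in young Myc livers, with r = 0.878 (n = 10, two-sided permutation p = 0.00056, adjusted p = 0.0336) and rho = 0.806 (permutation p = 0.00737, adjusted p = 0.167). Without the 2 livers farthest from the median Myc level r was 0.691, and 0 of 60 relations passed. Uck2 had r = 0.797 in the same group (permutation p = 0.00676, adjusted p = 0.101) and r = 0.912 in old Myc livers with vehicle (n = 11, permutation p = 0.0182, adjusted p = 0.210), where library 870 lies apart. Without the 2 farthest livers these were 0.388 and 0.649, and without library 870 alone the latter was 0.482. In that group r was above 0 with library 870 and below 0 without it for 5 members: Cad (0.655 and -0.259), Umps (0.794 and -0.117), Upp2 (0.539 and -0.149), Ctps (0.272 and -0.489) and Dhodh (0.205 and -0.753). By Spearman's rho 1 of 60 passed, Uck1 in old Myc livers with ruxolitinib (rho = 0.855, n = 14, permutation p = 0.00056, adjusted p = 0.0336). Its Pearson's r was 0.657 (permutation p = 0.0366, adjusted p = 0.25), and without libraries 860 and 861 rho was 0.497 and r 0.407. In old mApple livers with ruxolitinib Ctps2 had r = 0.948 and Dpys r = -0.892 (n = 9, exact permutation p = 0.00313 and 0.00347, both with an adjusted p of 0.0694), and 0.932 and -0.842 without libraries 864 and 865. Ctps2 had the opposite sign in young Myc livers (r = -0.710, n = 10, permutation p = 0.0210, adjusted p = 0.210). In old Myc livers with ruxolitinib it had r = -0.657 (n = 14, permutation p = 0.0328, adjusted p = 0.25), and -0.485 without libraries 860 and 861.

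Other genes of pyrimidine metabolism were read by list. Of 13 genes of deoxypyrimidine synthesis and phosphorylation, 9 were higher and none lower with the Myc vector in old livers given vehicle. Of all genes, 10.8% were higher and 8.01% lower there. The median log2 difference of the list was 0.59, beside -0.02 over all genes. Nme1, a nucleoside diphosphate kinase, rose by 0.91 ± 0.13 (edgeR adjusted p = 8.21e-05), and Dut, which clears dUTP, by 0.84 ± 0.15 (0.000799). With ruxolitinib 8 of the 13 were higher, beside 8.40% of all genes. In young livers 5 were higher and 1 lower, beside 13.5% and 14.0% of all genes. These counts include Dctd, the dCMP deaminase, which had few counts in mApple livers and passed the filter only in comparisons with Myc livers. A gene tested only because its Myc livers are high can hardly come out other than higher. Dctd therefore lends no weight to the counts of this list or to the list median, and no fold is given. It had 0 to 3 counts in young mApple and 19 to 46.5 in young Myc livers, and with ruxolitinib 2 to 18 counts in old mApple and 9.5 to 46.5 in old Myc livers. In young livers Cmpk2 differed by -1.04 ± 0.11 on the log2 scale (edgeR adjusted p = 1.55e-06). Cmpk2, a mitochondrial kinase whose gene is induced by interferon, also fell with ruxolitinib, by 1.73 on the log2 scale in old mApple livers (edgeR adjusted p = 0.0163) and by 1.87 in old Myc livers (0.00433). It was the only tested gene of the list called in either drug comparison. In the combined comparison of old livers 7 of 13 were higher, beside 6.52% of all genes.

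The other lists were short, and the lists were not compared by a test. Beside them, 10.8% of all genes were higher and 8.01% lower with Myc and vehicle in old livers, and 8.40% and 5.96% with Myc and ruxolitinib. A count of 1 in a list this short is not read as a result. Of 6 nucleotidases, 2 were higher with Myc in old livers with either treatment, and Nt5c3b, a cytosolic nucleotidase, rose by 0.96 ± 0.16 with vehicle (edgeR adjusted p = 0.000471). Of 4 genes that supply phosphoribosyl pyrophosphate, the ribose donor used by Umps, 2 were higher with vehicle and 0 with ruxolitinib. Of 5 tested nucleoside transporters 1 was higher with vehicle, of 6 genes of UDP sugar use 1 was lower with vehicle, and 0 of either list passed with ruxolitinib. Of 4 tested genes of other salvage, Upp1, the other uridine phosphorylase, fell by 0.65 on the log2 scale with Myc and vehicle (edgeR adjusted p = 0.00905). With Myc and ruxolitinib 0 of 5 passed. For the drug against vehicle, 1 of these 5 was lower in old Myc livers, where 0.502% of all genes were lower. In old mApple livers 0 of 4 tested passed with the drug. Of 3 other breakdown genes, 0 passed in either comparison of vectors in old livers, like the members Upp2 and Dpys. In young livers 13.5% of all genes were higher and 14.0% lower. There 2 of 6 nucleotidases, 2 of 4 phosphoribosyl pyrophosphate genes and 2 of 5 tested transporters were higher. So were 1 of 6 UDP sugar genes and 1 of 5 other salvage genes. Lower were 1 of 6 UDP sugar genes and 1 of 3 other breakdown genes.

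Across the 58 livers, with values centred within group and batch, each member was compared with 12757 genes for its closest ones. The other members and predicted genes (Gm and Rik names) were left out of the choice. Ctps went with Ftsj3 (r = 0.820), Eif4a1 (0.815) and Trmt61a (0.814), and Cad with Copg1 (0.761), Eif3b (0.717) and Ints1 (0.711). Uck2 went with Mrps2 (0.796), Ncl (0.767) and Mtap (0.749), and Umps with Ola1 (0.811), Glrx3 (0.802) and Bpnt1 (0.793). Dhodh was closest to the ribosomal protein genes Rps27a (0.753), Rpl13 (0.751) and Rpl13a (0.743). Upp2 was closest to Slc38a4 (0.818), Nqo2 (0.802) and Abcg5 (0.800), and Dpys to Pecr, Il1rap and Proc (0.863, 0.863 and 0.862). Ctps2 was closest to Cyp4f16 (0.745), Cmpk1 to Rheb (0.762) and Uck1 to Khk (0.772). Within the list, Umps and Uck2 had r = 0.624, Cad and Ctps 0.507, and Ctps2 and Dpys -0.600. Without libraries 860, 861, 864 and 865, over 54 livers, these were 0.544, 0.499 and -0.470. The closest genes of Umps then had r of 0.569 to 0.696, of Upp2 0.684 to 0.694, of Dpys 0.705 to 0.750 and of Ctps 0.787 to 0.818. These are descriptions over livers that share batches and a composition of cells.

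Members also varied with cell type markers within group and batch. The level of the 8 hepatocyte markers had r = 0.673 with Dpys, 0.666 with Upp2 and 0.566 with Umps, and that of the 4 leukocyte markers -0.624, -0.444 and -0.551. Without libraries 860, 861, 864 and 865 the hepatocyte values were 0.310, 0.517 and 0.017, and the leukocyte values -0.429, -0.121 and -0.240. Ctps2 had -0.367 for hepatocyte, 0.518 for leukocyte and 0.475 for proliferation markers, and -0.061, 0.394 and 0.386 without them. For Cad and Ctps the values were -0.02 and 0.05 with hepatocyte and 0.02 and -0.125 with leukocyte markers, and without these livers -0.179 and -0.162, and 0.079 and -0.028. In library 860 Upp2 was at 12.1 CPM and Dpys at 68.8, and in library 861 at 53.4 and 52.4, against group medians of 165 and 207 CPM. These 2 livers were the lowest of their group for Upp2 and for Dpys. The part of cell composition in these values was not tested.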

How the data were processed

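The authors deposited 1 table of expected counts per gene for 58 poly(A) libraries of whole liver, read as paired ends of 75 bases. Per the submitters' processing notes, STAR and HOMER were used on mm10 (GRCm38), and the file headers record HOMER's analyzeRepeats program counting reads in exons, genes condensed, raw values and no strand option, so reads from overlapping genes on opposite strands cannot be told apart. Versions are not given in the sources used here. The deposited counts come in steps of 0.5 (29.9% not whole) and were rounded to whole numbers. Members were matched by symbol. Groups, ages and batches come from the labels.

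Each comparison was fitted over all genes with edgeR 4.0.16 in R 4.3.3 (quasi-likelihood test, TMM, filter at a minimum count of 10, a batch term where both batches entered, Benjamini-Hochberg adjustment over all tested genes, threshold 0.05). An SE is the log2 difference over the root of F. Alternatives were DESeq2 1.42.0, limma 3.58.1 (voom with quality weights), other size factors, no filter, no batch term, single batches, a single fit of 58 libraries and leaving out each library. Correlations used log2(CPM + 1) and 100000 permutations within batch (exact under 10 libraries). The fits were tested on simulated data for Myc with vehicle in old livers, the young comparison, the drug in old Myc livers and age by treatment. In that order, an implanted log2 change of 0.5 was called in 40%, 62%, 38% and 32% of 50 genes. A change of 1 was called in 96%, 100%, 76% and 64%. Small changes can therefore be missed.

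The members and lists were chosen with earlier results of these data known. The rule for named genes was all members, the 3 closest genes of each, and at most 2 genes of smallest p per list and comparison. The closest genes were chosen without other members and predicted genes. The motifs, the transcript search and the alternatives without libraries 870, 855, 860, 861, 864 and 865, for fits and correlations, were chosen after seeing the data. Promoters are RefSeq's for GRCm38.p6 and transcripts GENCODE's for GRCm38.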

Additional observations from a re-analysis of the deposited data

Results flagged for a closer look

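In 100 combinations of a member, group and batch with 4 to 10 livers, 6 had a highest or lowest liver set apart from the rest by Dixon's test, and chance alone sets apart about 1 in 20. Cad was 34.3 CPM in library 1150 (old, Myc with ruxolitinib, second batch), with the next liver at 25.3. Dhodh was 3.05 CPM in library 1134 (young, mApple with vehicle), where the next was 6.44, and 5.62 CPM in library 1141 (old, mApple with ruxolitinib, second batch), where the next was 8.33. Umps was 36.9 CPM in library 870 (old, Myc with vehicle, first batch), where the next was 52.1. This is the library whose Myc level lies among the mApple values. Cmpk1 was 120.0 CPM in library 1121 and Upp2 was 224.3 CPM in library 1123, both young livers with Myc and ruxolitinib, where the next were 104.3 and 151.4. In edgeR with all libraries, no interaction between vector and drug, or with age, passed the threshold for a member.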

How the results depend on the processing

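With Myc and vehicle in old livers (5 called) there were 3 without a batch term, 1 in the first batch alone and 2 in the second. With Myc and ruxolitinib (5) there were 3 without a batch term and 0 in the first batch alone. For the drug in old Myc livers (0), DESeq2 and the single fit of 58 libraries gave 1, and leaving out 1 library gave 0 to 1. For the combined comparison in old livers (3), DESeq2 and limma voom gave 5. For age in Myc livers given ruxolitinib (6), Upp2 was lost with RLE size factors (edgeR adjusted p = 0.0515) and without the filter (0.0564). The single fit of 58 libraries lost Upp2 (edgeR adjusted p = 0.166) and Uck1 (0.0810), and limma voom added Ctps (adjusted p = 0.0242). For age in mApple livers (0), DESeq2 gave 2, voom 3 and the single fit 1. For age by treatment (0), DESeq2 gave 1, voom 3 and leaving out 1 library 0 to 1. For the slope on Myc (0), DESeq2 gave 1, the Myc libraries alone 2 and a leukocyte covariate 1. For correlations (1), leaving out the 2 farthest livers gave 0.

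Signs turned, with no call on either side, for Cmpk1 (voom, -0.0016) and Dpys (second batch alone, 0.0011) with Myc and vehicle, for Upp2 with Myc and ruxolitinib (first batch alone, -0.66), and for Dpys in the combined comparison of old livers (-0.058 to 0.066 over left-out libraries). Slopes turned for Cad in Myc libraries without 870 (-0.12), for Umps in mApple libraries (-0.11) and without 870 (-0.016), and for Uck2 in mApple libraries (-0.050). Correlations with Myc turned in old Myc livers with vehicle without 870 for Cad (-0.259), Umps (-0.117), Upp2 (-0.149), Ctps (-0.489) and Dhodh (-0.753), and that of Ctps with hepatocyte markers without 860, 861, 864 and 865 (-0.162). Members not called in the drug, interaction, age and slope comparisons were mostly summarised by ranges, a choice made after their values were seen. Over 1479 refitted values of those, 151 changed sign and 1 passed the threshold (Uck2 in age by treatment, voom, -0.57, adjusted p = 0.0462). The share of all genes called ran over the alternatives from 4.66% to 25.5% for Myc with vehicle, 0% to 25.0% with ruxolitinib, 0.0454% to 1.05% and 0.0655% to 7.21% for the drug in mApple and Myc livers, 18.3% to 36.6% and 7.36% to 20.6% for the combined comparison in young and old livers, 0.944% to 12.5% and 23.2% to 39.8% for age in mApple and Myc livers, 0.141% to 4.39% for age by treatment and 0.007% to 10.8% for the slope. The cause was not tested in any of these. Ctps, Cad, Dhodh and Uck2 had as few as 27.5, 76.5, 33.5 and 54.5 counts in their lowest libraries, which limits small differences. No paired analysis was possible because library numbers are unique and groups share none.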
